A study of Mus musculus with 12 samples.

Results

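The subject here is a group of 39 genes of TGF-beta and BMP signalling: ligand and latency genes, receptors, SMADs, their inhibitors and targets, together with the 4 TIF1 genes, the family of TRIM33 itself. They were taken from a list of named genes, matched by Entrez number to the features of the deposited table, and all 39 of the 39 listed are on the array, out of 23279 genes tested. The values come from 12 single-colour arrays of inflammatory blood monocytes, 6 of TRIM33 and 6 of WT genotype, and every mouse is labelled C57BL/6 LyzCre and aged 6 to 8 weeks. LyzCre names a Cre recombinase driven from a lysozyme gene that is active in myeloid cells. Recombination is therefore directed at the myeloid lineage. The strain label of the WT mice names LyzCre too, and the labels give neither the floxed allele nor whether the WT mice carry it. The monocytes were sorted as CD11b+, CD115+ and high in Ly6C. The titles call 2 arrays of each genotype mixes, and nothing says how many animals stand behind a mix or that the other 4 arrays of each genotype are separate animals, so every p-value below measures array-to-array spread, part of which may be technical.

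TGF-beta is secreted in a latent complex and acts, once freed, through a type II receptor that phosphorylates a type I receptor. The type I receptor phosphorylates SMAD2 and SMAD3 in the TGF-beta and activin branch, or SMAD1 and SMAD5 in the BMP branch, and these enter the nucleus with the shared partner SMAD4. TRIM33, also called TIF1-gamma, is a nuclear protein with a RING finger, a PHD finger and a bromodomain that binds phosphorylated SMAD2 and SMAD3 and has been described both as a partner and as a restraint of SMAD4. In monocytes and macrophages the pathway is known for its part in differentiation and in restraining inflammation.

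The 12 arrays fall into a pair of sets of 6, balanced over genotype with 3 TRIM33 and 3 WT arrays apiece, and every result below is given with this in view. The sets were taken from average-linkage clustering of all features other than the 39 genes, and genotype was not used. One is called the Xist set, since Xist, the RNA of the inactive X chromosome, read 9.01 to 10.18 on the log2 scale there but 3.36 to 3.64 in the other, named the Y set, where the Y-linked Eif2s3y read 8.09 to 8.47 against 2.19 to 2.89. The sorted markers were present on all 12 arrays, though not at one level. Ly6c2 read 12.20 to 12.55 over both sets, while Csf1r, which encodes CD115, read 9.73 to 10.12 on the Xist set arrays and 10.88 to 11.09 on the others, and Itgam, which encodes CD11b, 9.40 to 9.88 and 10.41 to 10.68. Mean log2 levels of marker lists parted the sets: 7 progenitor and cycling genes, Mki67, Mpo and Elane among them, read 10.11 to 10.38 in the Xist set against 4.33 to 6.02 in the Y set, and 6 Ly6C-low monocyte genes read 6.68 to 7.22 in the former against 8.29 to 9.27. In the Y set 5 platelet genes read 5.18 to 6.76 against 4.02 to 4.23 in the Xist set, and the erythroid gene Alas2, the only one of 4 listed that was measured, 7.83 to 10.20 against 3.57 to 4.14. The mean of 7 neutrophil genes was higher in the Xist set, at 6.43 to 7.23 against 4.86 to 6.12. Of these, Retnlg and Cxcr2 went the other way, at -0.38 and -0.12 (Xist set minus Y set). The B cell and dendritic lists were lower there, at 4.29 to 4.52 against 4.58 to 5.62 and at 4.48 to 5.12 against 5.21 to 5.77. Within them Cd79b and Zbtb46 went the other way, at 0.12 and 0.03 (Xist set minus Y set), with overlap between the sets. The T cell list was lower there too, with all 6 arrays under the 3.77 to 4.47 of the Y set. The natural killer list overlapped between the sets, and the 5 endothelial genes read 3.14 to 3.38 on all arrays. All 4 mixes lie in the Y set. Because these features and the set move together, their parts in any difference between the sets cannot be told apart.

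Among the TIF1 genes, Trim33 fell and its paralogs did not pass the test. Trim33 (Entrez 94093) read 6.23, 6.12, 6.06, 6.08, 6.19 and 6.09 on the 6 TRIM33 arrays and 6.81, 7.05, 6.88, 6.93, 6.92 and 6.93 on the 6 WT arrays, on the log2 scale. Every TRIM33 array lay below every WT array. The genotypes did not overlap over all 12 arrays for 1 of the 39 genes, Trim33, against 0.198% of all genes. The means were 6.13 ± 0.0653 (SD, n = 6) and 6.92 ± 0.0794 (SD, n = 6), a fall by 0.79 on the log2 scale (SE 0.0671; limma, Benjamini-Hochberg adjusted p = 0.000637, and 0.000149 after blocking on array set). The TRIM33 arrays thus held 57.8% of the WT signal on a linear scale. The fall was as large in the Y set (-0.79) as in the Xist set (-0.79), though with 3 arrays against 3 it did not pass adjustment over all genes in either alone (limma adjusted p = 0.134 and 0.227). Within the Xist set 0.0129% of all genes passed and within the Y set 0.0344%. The labels and files do not place the probes of this feature on the gene, so the remaining signal cannot be read as intact transcript.

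Trim24 encodes TIF1-alpha, a cofactor of nuclear receptors. It read 6.84 to 7.02 (median 6.98) on the TRIM33 arrays and 6.66 to 7.23 (median 6.94) on the WT arrays, a difference of -0.01 on the log2 scale (95% interval -0.23 to 0.20 after blocking on array set). Trim66, whose feature lay below the median of the table, differed by 0.03 (-0.25 to 0.31). Trim28, which encodes the KRAB zinc finger corepressor KAP1, differed by -0.07 between genotypes (-0.26 to 0.12), but its values followed the array set. It read 7.75 to 8.12 in the Xist set against 6.95 to 7.31 in the Y set, with no overlap and a difference in means of 0.83. Within either set the genotypes overlapped, so the paralogs gave no difference beyond the spread of the arrays.

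**Figure D1:**
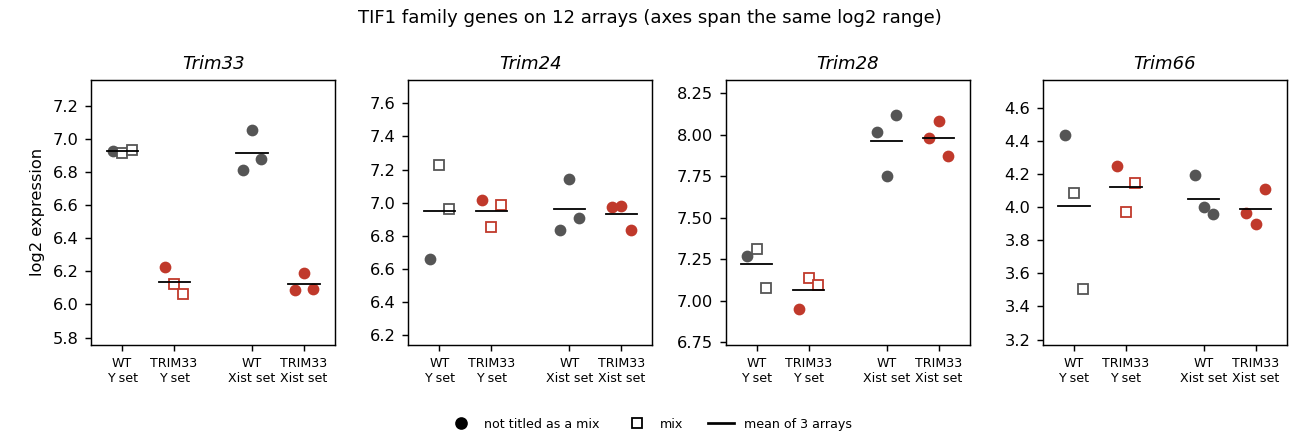
Log2 expression (y axis, the same span in each panel) of Trim33, Trim24, Trim28 and Trim66 on each of the 12 arrays, split by genotype and array set on the x axis; open squares are mixes and the black line is the mean of 3 arrays. The 6 TRIM33 arrays read at most 6.23 for Trim33 and the 6 WT arrays at least 6.81, while Trim28 parts the array sets and not the genotypes.

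The comparison of genotypes asks which transcripts of the pathway differ in these monocytes when Trim33 is targeted. In the fit with genotype alone 1 of the 39 genes, Trim33, passed an adjusted p of 0.05, against 5 of all 23279 genes (0.0215%). Trim33 was the 1 gene of those 5 that was lower (0.0043%). After blocking on array set it was again 1 of 39, against 9 genes in all (0.0387%), of which Trim33 was again the 1 lower gene. The count over all genes rose from 5 to 9 when TRIM33 replicate 4 was left out of the fit without the block, and that over the 39 genes was 1 whichever array was left out. The other 38 genes were not called, and their 95% intervals with the block lay between -0.81 and 0.46 on the log2 scale, with the widest for Id2 and Id3. Differences within these intervals were not resolved by 12 arrays.

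Most differences of the group had the same sign. The mean was lower in the TRIM33 arrays for 30 of 39 genes (76.9%), Trim33 included, against 55% of all genes, and for 29 of the 38 others. Among genes brighter than the median of the table it was lower for 26 of the 33 members above it, against 52.7% of all such genes. The median difference of the 39 genes was -0.07 on the log2 scale beside -0.01 over all genes, and it was -0.08 in the Xist set and -0.08 in the Y set. Lower means in both sets were found for 18 of 39 genes, against 29.1% of all genes. Higher means in both were found for 2 of 39, against 5177 of all 23279 genes. The median lay between -0.13, without WT replicate 1, and -0.03, without WT replicate 5, when each array was left out in turn. Marker lists also differed in mean between the genotypes, with ranges that overlapped over all 12 arrays. The neutrophil list stood at 0.34 and the progenitor and cycling list at 0.24 (TRIM33 minus WT, log2). Within them Ngp, at -0.22, and Mpo, at -0.02, went the other way. The natural killer, Ly6C-low, dendritic and T cell lists stood at -0.25, -0.24, -0.20 and -0.16. The Ly6C-high list stood at 0.04 and overlapped in the Xist set. In the Y set it was apart, at 11.28 to 11.36 on the TRIM33 arrays against 11.19 to 11.25 on the WT arrays. Of its genes Csf1r went the other way, at -0.15 over all arrays and -0.07 in the Y set. Ccr2 stood at -0.02 over all arrays and 0.01 in the Y set. None of the marker genes passed limma's adjusted p of 0.05 between genotypes in either fit. Within the Y set, TRIM33 replicate 2 had the highest progenitor and cycling mean, 6.02, where its 5 companions read 4.33 to 4.88, and the highest neutrophil mean, 6.12, where they read 4.86 to 5.26. Without it the median difference of the 39 genes was -0.11 and the number called was 1. The part of these lists in the lower means was not tested. These genes are measured on the same 12 arrays and are not independent of each other, so the counts describe the group and are no test of it.

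**Figure D2:**
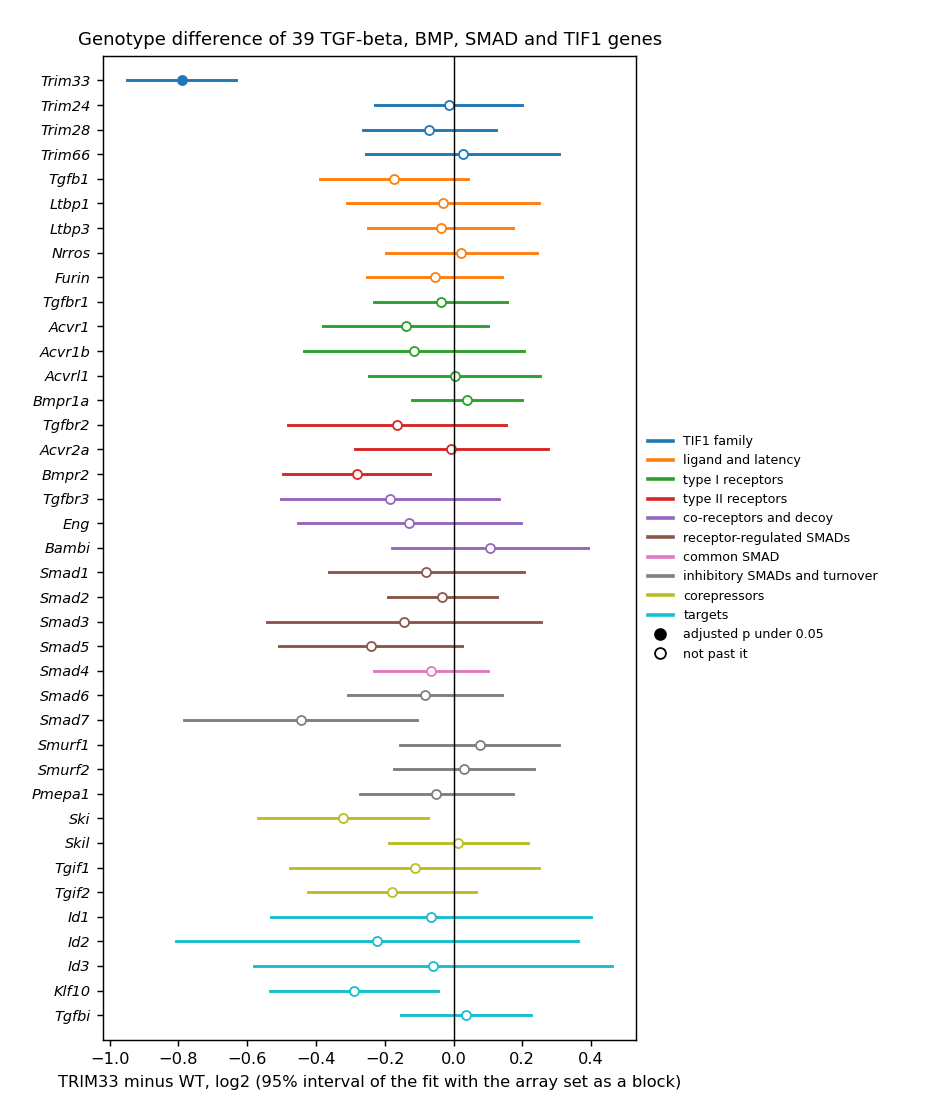
TRIM33 minus WT differences in log2 expression (x axis) of the 39 genes, ordered and coloured by class, with 95% intervals from the limma fit blocked on array set; the filled point passed an adjusted p of 0.05. Trim33 stands at -0.79, and of the open points only Smad7, Ski, Bmpr2 and Klf10 have intervals that leave out 0.

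At an unadjusted p under 0.05, limma gave 2 of 39 genes without the block (Trim33 and Smad7), against 3.07% of all genes, and 5 of 39 with it (12.8%), against 5.28%. All 5 were lower, against 2.84% of all genes that were lower at this p. Besides Trim33 they were Smad7, Ski, Bmpr2 and Klf10. Their adjusted p with the block lay between 0.799 and 0.869, so none of these 4 counts as changed.

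Smad7 encodes the inhibitory SMAD that blocks the activated type I receptor and is itself induced by the pathway. It read 5.11, 5.81 and 6.02 on the TRIM33 arrays of the Y set against 6.26, 6.32 and 6.19 on the WT arrays of that set. The Xist set gave 5.78, 5.27 and 5.44 against 6.05, 5.41 and 5.86. The genotypes were apart in the Y set, where TRIM33 replicate 1 read lowest, and overlapped in the Xist set. Over all arrays the difference was -0.44 (SE 0.184; limma adjusted p = 1), and with the block its SE was 0.158 (adjusted p = 0.814).

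Ski encodes a corepressor that binds the SMAD complex and holds target genes silent. In the Y set it read 6.15, 6.48 and 6.32 on the TRIM33 arrays and 6.35, 6.89 and 6.92 on the WT arrays. In the Xist set the values were 6.03, 5.79 and 5.98 against 6.30, 5.94 and 6.28. WT replicates 2 and 4 each overlapped the TRIM33 arrays of their set. The difference of -0.32 had an SE of 0.173 without the block and 0.116 with it (limma adjusted p = 0.828 with the block).

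Bmpr2 encodes the type II receptor of the BMP branch. On the TRIM33 arrays it read 8.86, 8.76 and 8.80 in the Y set and 7.87, 7.92 and 8.23 in the Xist set. The WT arrays read 8.77, 9.08 and 8.98 in the Y set and 8.46, 8.58 and 8.25 in the Xist set. Here it was the Xist set in which the genotypes did not overlap, the reverse of Smad7. The difference was -0.28 (SE 0.207 without the block and 0.0997 with it; limma adjusted p = 0.799 with the block).

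Klf10 encodes a zinc finger protein first named as a TGF-beta inducible early gene. It read 8.84, 8.48 and 8.82 on the TRIM33 arrays of the Y set and 9.29, 8.97 and 8.80 on the WT arrays. The Xist set gave 8.15, 7.77 and 7.82 against 8.30, 7.94 and 8.32. Both sets showed an overlap of 1 WT array with the TRIM33 arrays. The difference was -0.29 (SE 0.114 with the block; limma adjusted p = 0.869). When each of the 12 arrays was left out of the fit with the block, limma's unadjusted p of Smad7, Ski and Bmpr2 stayed under 0.05 in 12 of 12 fits, at 0.0404 or less. That of Klf10 did so in 8 of 12, the highest at 0.0631. These genes were picked by this p on the same arrays, so the fits are no further test of them.

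**Figure D3:**
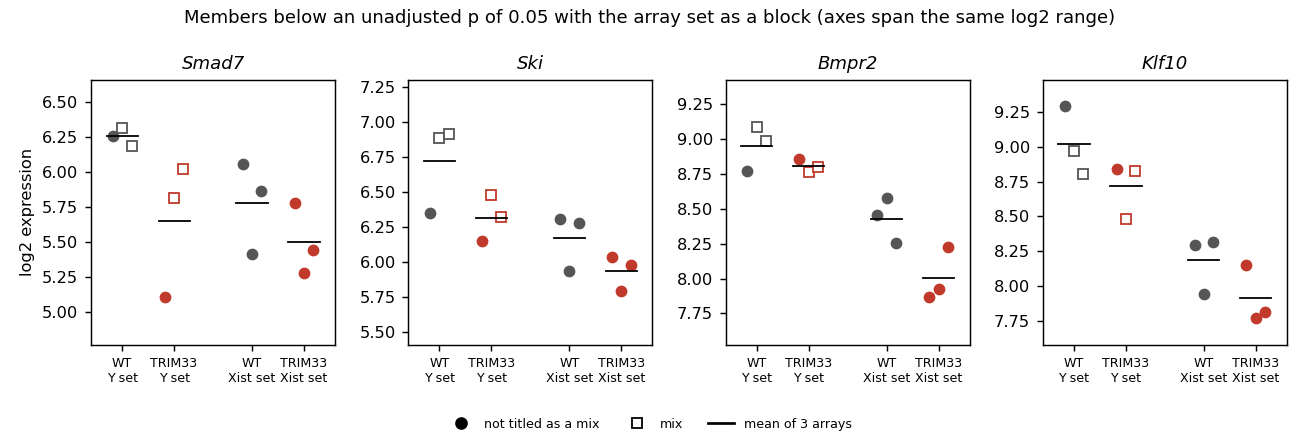
Log2 expression (y axis, the same span in each panel) of Smad7, Ski, Bmpr2 and Klf10 on each array by genotype and array set; open squares are mixes and the black line is the mean of 3 arrays. In both sets the TRIM33 mean is below the WT mean for all 4 genes, with overlap of single arrays in at least 1 set for each.

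No gene of the group was called in a test of whether the genotype difference itself differed between the array sets (limma interaction term, 0 of 39 at an adjusted p of 0.05, against 1 gene, or 0.0043%, of all). At an unadjusted p under 0.05 there was 1 of 39, against 4.21% of all genes. That gene was Ltbp1, which encodes a latent TGF-beta binding protein and whose feature lay below the median of the table. It differed by -0.28 in the Xist set and 0.22 in the Y set (interaction 0.51, SE 0.232; limma adjusted p = 0.996). Over the Xist set the 2 genotypes did not overlap for 7 of 39 genes, against 10.3% of all genes, and over the Y set for 4 of 39, against 10%. Trim33 alone was apart in both sets, against 0.735% of all genes.

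More of these genes parted the array sets than parted the genotypes. For 16 of the 39 (41%) the 6 arrays of the Xist set did not overlap the 6 of the Y set, against 14% of all genes. All 16 are among the 33 members brighter than the median of the table, a class of genes in which 26.2% of all were apart. Of the 16, 13 were lower in the Xist set, against 6.59% of all genes and 12.4% of those brighter than the median, and 3 were higher, against 7.45% of all: Trim28, Smad2 and Bambi. No test of the sets was made, since they were found in these data. In sorted bulk samples, fewer cells of a type and less RNA per cell cannot be told apart. The 5 genes apart by 1 or more on the log2 scale were all lower in the Xist set: the receptors Tgfbr2 and Tgfbr1, the TGF-beta signal carrier Smad3, the corepressor Skil and the target Id3. By the same measure 4.38% of all genes, and 8.33% of those brighter than the median, were apart.

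**Figure D4:**
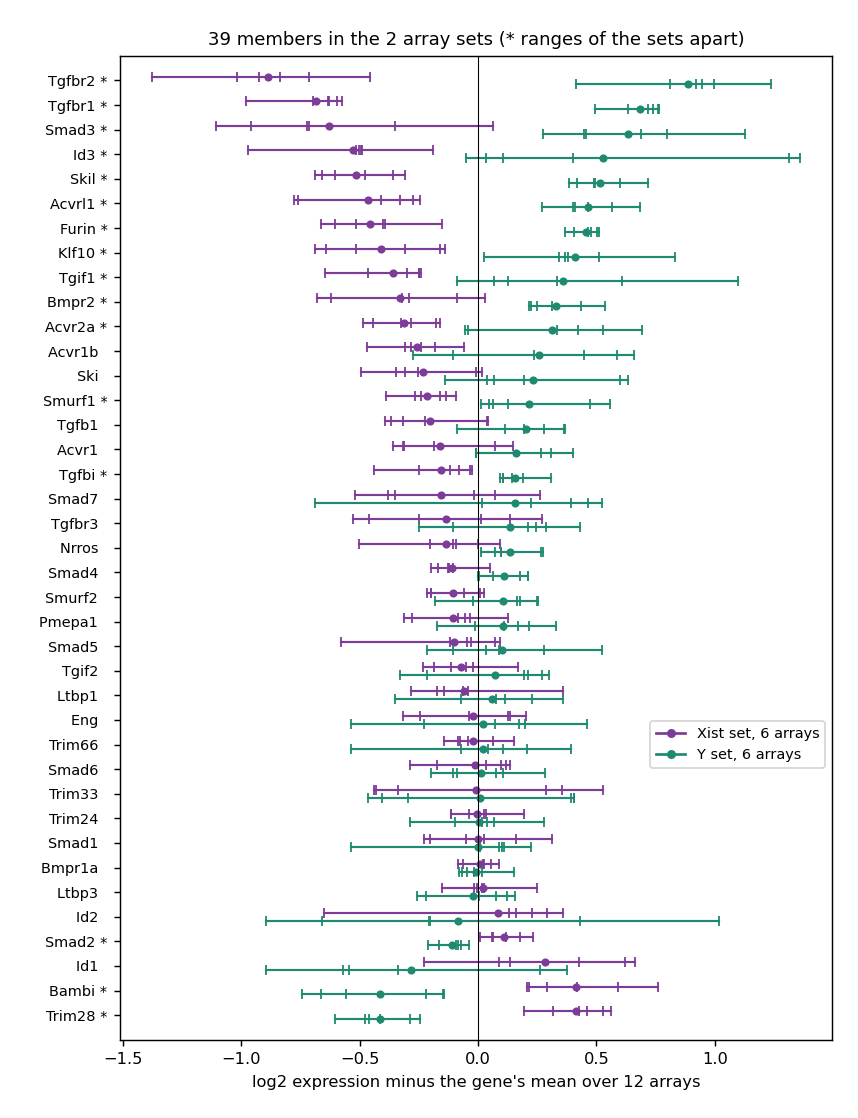
Log2 expression of the 39 genes, each minus its own mean over the 12 arrays (x axis), in the Xist set (purple) and the Y set (green); ticks are arrays, lines their range and dots the mean, and a star marks ranges that do not overlap. Tgfbr2, at -1.77 between the set means, and Tgfbr1, at -1.37, stand at the top, and Bambi and Trim28, at 0.83 each, at the bottom.

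The upstream sequence of the genes that part the sets most, and of Id2, which comes up below with Id3, is given to show where SMAD-type letters fall in it. Each run is the 250 bases before a RefSeq start on GRCm38.p6, written 5′ to 3′ on the strand of the gene. Capitals mark matches on either strand to CAGAC, the short element that SMAD3 and SMAD4 bind, and to GGCGCC, a GC-rich element bound by BMP SMADs. Promoters were matched by symbol for 28 of the 39 genes, and Skil is not among them. Tgfbr1 has 2 listed starts.
Tgfbr1 start 1 (chr4:47352972-47353221, plus strand): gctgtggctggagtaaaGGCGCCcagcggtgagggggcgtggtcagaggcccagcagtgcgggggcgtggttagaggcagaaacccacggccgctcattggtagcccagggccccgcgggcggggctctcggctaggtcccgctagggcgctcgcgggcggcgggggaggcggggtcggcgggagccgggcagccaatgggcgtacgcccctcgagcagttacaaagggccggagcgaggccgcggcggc
Tgfbr1 start 2 (chr4:47385966-47386215, plus strand): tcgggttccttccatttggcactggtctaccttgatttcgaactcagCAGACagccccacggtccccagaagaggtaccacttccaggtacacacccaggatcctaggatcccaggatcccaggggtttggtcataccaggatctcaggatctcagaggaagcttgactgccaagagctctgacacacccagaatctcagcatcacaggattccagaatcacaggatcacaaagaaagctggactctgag
Tgfbr2 (chr9:116175364-116175613, minus strand): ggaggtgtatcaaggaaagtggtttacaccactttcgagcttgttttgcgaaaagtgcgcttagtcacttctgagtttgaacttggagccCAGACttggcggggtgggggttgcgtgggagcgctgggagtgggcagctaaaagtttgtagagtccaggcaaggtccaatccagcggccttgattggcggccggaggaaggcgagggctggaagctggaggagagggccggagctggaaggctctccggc
Smad3 (chr9:63757995-63758244, minus strand): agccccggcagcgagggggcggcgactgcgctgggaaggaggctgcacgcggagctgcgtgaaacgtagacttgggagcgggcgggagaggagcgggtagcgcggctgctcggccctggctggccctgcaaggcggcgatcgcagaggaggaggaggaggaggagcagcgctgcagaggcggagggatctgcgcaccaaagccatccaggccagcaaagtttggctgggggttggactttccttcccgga
Id3 (chr4:136143572-136143821, plus strand): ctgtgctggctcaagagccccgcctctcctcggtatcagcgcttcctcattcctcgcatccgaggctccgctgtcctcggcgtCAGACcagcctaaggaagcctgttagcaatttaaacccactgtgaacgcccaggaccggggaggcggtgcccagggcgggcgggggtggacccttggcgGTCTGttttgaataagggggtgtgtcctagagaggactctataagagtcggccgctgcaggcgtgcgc
Id2 (chr12:25096093-25096342, minus strand): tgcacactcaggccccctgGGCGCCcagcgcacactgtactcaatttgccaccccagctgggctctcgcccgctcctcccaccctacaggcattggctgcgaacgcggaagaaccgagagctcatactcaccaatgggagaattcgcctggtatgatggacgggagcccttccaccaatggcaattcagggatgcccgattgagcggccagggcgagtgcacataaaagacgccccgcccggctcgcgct
CAGAC or its complement GTCTG was found 2 times before Id3, 1 time before Tgfbr2 and 1 time before the second Tgfbr1 start. GGCGCC was found 1 time before the first Tgfbr1 start and 1 time before Id2, and Smad3 held neither. Over all 32851 windows of this length 42.2% hold CAGAC, 9.59% GGCGCC and 0.167% the palindrome GTCTAGAC, which shares no full match with CAGAC. Of the 38 windows of the 28 genes, 55.3% held CAGAC, 23.7% GGCGCC and 0 the palindrome. These are matches of letters in a short window and say nothing of binding.

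None of the 5 ligand and latency genes passed the test between genotypes. Tgfb1, the ligand, read 10.13 to 10.89 (median 10.37) on the TRIM33 arrays and 10.21 to 10.89 (median 10.60) on the WT arrays. The ranges coincide, and the difference was -0.17 on the log2 scale (95% interval -0.39 to 0.04 with the block). Nrros, which encodes the protein that tethers latent TGF-beta on myeloid cells, differed by 0.02 (-0.20 to 0.24). Furin, the protease that cleaves the TGF-beta precursor, differed by -0.06 between genotypes (-0.25 to 0.14) and followed the sets, reading 7.26 to 7.77 in the Xist set against 8.29 to 8.43 in the Y set. Ltbp3, a further latent TGF-beta binding protein, was also below the median of the table and differed by -0.04. Platelets are known to hold much TGF-beta, and the platelet marker list was higher in the Y set, as given above. Tgfb1 read 10.44 to 10.89 there against 10.13 to 10.57, with overlap. Within the Y set TRIM33 replicate 1 and WT replicate 4 read lowest on the platelet list, at 5.18 and 5.73, and highest for Tgfb1, at 10.89 each. The mixes read 5.86 to 6.76 and 10.44 to 10.81. The part of platelet RNA in these values was not tested.

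Receptor genes carried the largest differences between the sets. Tgfbr2, which encodes the type II receptor that binds TGF-beta, read 7.49, 6.91 and 7.44 on the TRIM33 arrays of the Y set and 7.42, 7.31 and 7.73 on the WT arrays. In the Xist set it read 5.12, 5.47 and 6.04 and then 5.66, 5.57 and 5.78. Each Xist set array lay below each Y set array, and the genotypes overlapped within both sets (difference -0.17, 95% interval -0.48 to 0.15 with the block). Tgfbr1, its type I partner, read 7.32, 7.43 and 7.46 and then 7.19, 7.41 and 7.45 in the Y set for TRIM33 and WT arrays. In the Xist set the values were 6.12, 6.00 and 5.71 and then 6.10, 6.06 and 6.06. The set means were 6.01 and 7.38, and the genotype difference was -0.04 (-0.23 to 0.15).

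Among the other receptors, Acvrl1, a type I receptor for BMP ligands also called ALK1, read 6.12 to 6.66 in the Xist set against 7.17 to 7.59 in the Y set and differed by 0.00 between genotypes (95% interval -0.24 to 0.25 with the block). Acvr2a, a type II receptor for activins, read 5.48 to 5.80 in the Xist set against 5.91 to 6.66 in the Y set. Acvr1 and Acvr1b, type I receptors of the BMP and activin branches, overlapped between the sets and differed by -0.14 and -0.11 between genotypes. Bmpr1a, a BMP type I receptor, read 2.64 to 2.88 on all 12 arrays, low in the table. The co-receptor genes Tgfbr3 and Eng differed by -0.18 and -0.13 between genotypes without passing the test. Bambi, which encodes a decoy receptor without a kinase, ran against Tgfbr1 and Tgfbr2 between the sets: 6.39 to 6.94 in the Xist set against 5.44 to 6.04 in the Y set. In the Xist set its 3 TRIM33 arrays lay above the 3 WT arrays, by 0.35, and in the Y set the difference was -0.14.

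The SMAD genes did not move as one between the sets. Smad3 stood at -1.26 on the log2 scale in the Xist set relative to the Y set. In the Xist set it read 5.76, 6.00 and 6.78 on TRIM33 arrays and 6.37, 5.61 and 5.99 on WT arrays. In the Y set it read 7.16, 6.99 and 7.17 against 7.84, 7.51 and 7.40. There the TRIM33 arrays lay below the WT arrays (-0.48), while in the Xist set the difference was 0.19, and over all arrays it was -0.14 (95% interval -0.54 to 0.25 with the block). Smad2, which carries the same signal, ran the other way between the sets, at 8.54 to 8.77 in the Xist set against 8.32 to 8.49 in the Y set. Smad4, the shared partner, read 8.17 to 8.54 on the TRIM33 arrays and 8.14 to 8.55 on the WT arrays, a difference of -0.07 (-0.23 to 0.10). Of the BMP branch, Smad1 differed by -0.08 (-0.36 to 0.20) and Smad5 by -0.24 (-0.51 to 0.02) between genotypes. All 4 receptor-regulated SMAD genes thus had a lower mean in the TRIM33 arrays, and 0 of them passed the test.

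None of the 5 inhibitory SMAD and turnover genes, Smad7 among them, and none of the 4 corepressor genes passed the test between genotypes. Smad6, the inhibitory SMAD of the BMP branch, differed by -0.08 (95% interval -0.31 to 0.14 with the block). The ubiquitin ligase genes Smurf1 and Smurf2 differed by 0.08 and 0.03, and Pmepa1, a membrane protein that sequesters SMAD2 and SMAD3, by -0.05. Smurf1 read 5.58 to 5.87 in the Xist set against 5.98 to 6.52 in the Y set. Of the corepressors, Skil, which encodes the Ski relative SnoN and is a known target of the pathway, read 4.55 to 4.93 in the Xist set against 5.62 to 5.96 in the Y set. Its genotype difference was 0.01 (-0.19 to 0.22), beside the -0.32 of Ski. Tgif2, a homeobox corepressor, differed by -0.18, with the TRIM33 arrays of the Y set below the WT arrays at 4.63, 4.74 and 5.15 against 5.25, 5.23 and 5.17.

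The Id targets had the widest intervals. The Id genes encode inhibitors of basic helix-loop-helix factors and are classic BMP targets. Id1 read 5.80 to 7.35 (median 6.77) on the TRIM33 arrays and 6.12 to 7.31 (median 6.80) on the WT arrays. Id2 read 7.37 to 9.28 (median 8.06) and 8.06 to 8.70 (median 8.41), and Id3 read 4.06 to 6.39 (median 4.80) and 4.53 to 6.34 (median 4.91). For all 3 the genotypes overlapped. The differences were -0.07 for Id1 (95% interval -0.53 to 0.40 after blocking), -0.22 for Id2 (-0.81 to 0.36) and -0.06 for Id3 (-0.58 to 0.46). Tgfbi, a matrix protein gene named for its induction by TGF-beta, read 11.22 to 11.77 on the TRIM33 arrays and 11.03 to 11.66 on the WT arrays, a difference of 0.04 (95% interval -0.15 to 0.23 with the block). It was lower in the Xist set, at 11.03 to 11.44 against 11.56 to 11.77.

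The spread of Id2 and Id3 within the Y set followed preparation, that is, whether an array is titled as a mix. Id3 read 6.39 and 6.34 on TRIM33 replicate 1 and WT replicate 4, the pair of Y set arrays whose titles name no mix, and 5.43, 5.06, 5.14 and 4.98 on the 4 mixes. Id2 read 9.28 and 8.70 there against 7.61, 7.37, 8.06 and 8.06, and Tgif1, a homeobox corepressor of SMAD2, 7.26 and 7.75 against 6.99, 6.56, 6.78 and 6.72. Acvr1b went the other way, at 6.00 and 6.17 against 6.93, 6.51, 6.86 and 6.72. In each of these 4 genes the pair of arrays lay outside the range of the mixes, whatever the genotype.

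With preparation in the fit beside genotype and array set, a comparison added after the data were seen, 2 of the 39 genes passed an adjusted p of 0.05, against 156 of all genes (0.67%). All 4 mixes lie in the Y set, so this fit compares them with the pair of Y set arrays not titled as mixes. Id3 was higher by 1.21 on the log2 scale in that pair (SE 0.182, limma adjusted p = 0.00827). The Xist set arrays, none of them mixes, read 4.06 to 4.84 for Id3, below the 4.98 to 5.43 of the mixes. Acvr1b was lower by -0.67 in the pair (SE 0.140, limma adjusted p = 0.0475). Id2 differed by 1.22 (SE 0.262, limma adjusted p = 0.0528) and Tgif1 by 0.74 (SE 0.165, adjusted p = 0.0599) without passing. The count rests on few arrays: it was 0 without TRIM33 replicate 1 or without WT replicate 4, when 1 such array is left and is assumed to vary like the rest, and 1 without WT replicate 5 or 6. The difference of Id2 was 0.73 without TRIM33 replicate 1 and 1.70 without WT replicate 4. At an unadjusted p under 0.05 there were 10 of 39 genes, against 10.7% of all, and for 11 of 39 the ranges within the Y set were apart, against 20.4% of all. Other markers moved with preparation in the Y set. Alas2 read 7.83 and 8.58 against 9.31 to 10.20 on the mixes, the platelet list 5.18 and 5.73 against 5.86 to 6.76, and Nr4a1, an immediate early gene, 11.34 and 11.72 against 9.86 to 10.85. The progenitor and cycling list read 4.33 and 4.65 against 4.70 to 6.02 on the mixes. The T cell gene Cd3d read 4.82 and 5.16 against 4.13 to 4.62. The T cell list as a whole overlapped, at 4.47 and 4.39 against 3.77 to 4.41. Atf3, a stress-induced factor that SMAD3 is known to bind, was named after its values were seen. It was higher by 1.72 in the pair of Y set arrays not titled as mixes (SE 0.196, limma adjusted p = 0.00178). The part of these in the Id3 and Acvr1b differences was not tested.

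**Figure D5:**
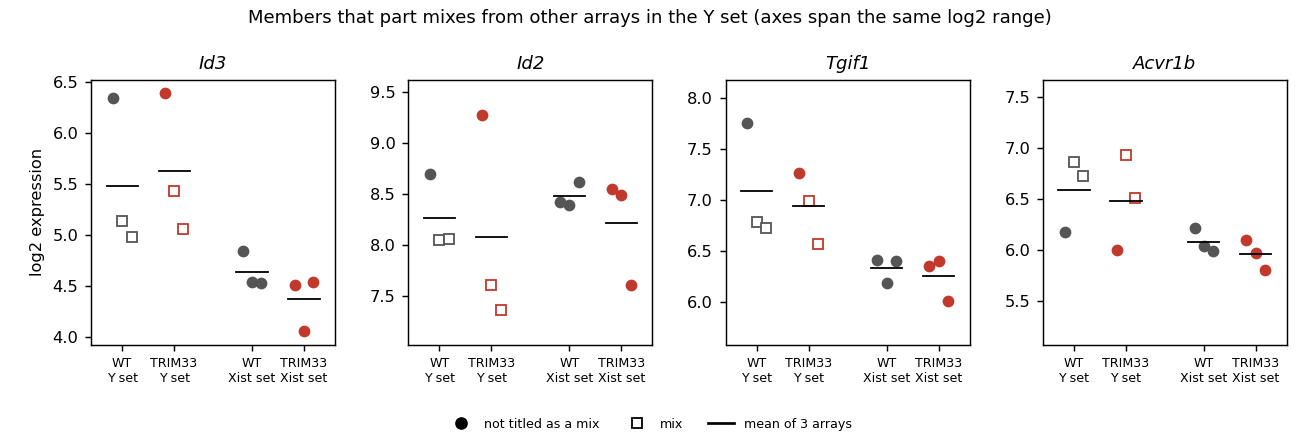
Log2 expression (y axis, the same span in each panel) of Id3, Id2, Tgif1 and Acvr1b on each array by genotype and array set; open squares are mixes, filled circles other arrays and the black line the mean of 3 arrays. In the Y set the filled circles stand above the open squares for Id3, Id2 and Tgif1 and below them for Acvr1b in both genotypes.

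A further list of 120 pathway genes held 112 that are on the array: other ligands, extracellular antagonists, receptors, adaptors, nuclear partners and targets. With genotype alone 0 of 112 passed limma's adjusted p of 0.05 and 4 had an unadjusted p under 0.05 (2 higher and 2 lower), beside 3.07% of all genes. After blocking on array set 0 passed and 7, or 6.25%, had such a p (2 higher and 5 lower), beside 5.28% of all genes. These shares lie near those of all genes. Rgmb, a BMP co-receptor gene, had the smallest p in both fits. It read 5.03 to 5.76 on the TRIM33 arrays and 5.51 to 6.03 on the WT arrays, a difference of -0.35 (SE 0.130; limma adjusted p = 1 without the block and 0.645 with it). Inhbb, which encodes an activin subunit and lay below the median of the table, was next without the block, at 0.22 (SE 0.0965), and Zfhx3, a nuclear partner, next with it, at -0.28 (SE 0.105). The median difference of the 112 genes was -0.03. Between the array sets 21 of 112 were apart, 18.8%, beside 14% of all genes. The 5 of 112 that differed by 1 or more, a share near the 4.38% of all genes, were Zfyve9, Junb, Myc, Rbl1 and Uchl5, named here after their values were seen. Zfyve9 encodes SARA, the anchor that presents SMAD2 and SMAD3 to the type I receptor, and it read 5.75 to 6.22 in the Xist set against 7.57 to 8.04 in the Y set. Myc, which TGF-beta is known to repress through SMAD3 and the pocket protein encoded by Rbl1, read 6.90 to 7.30 in the Xist set against 5.15 to 6.12 in the Y set. Rbl1 itself read 7.86 to 8.10 and 5.88 to 6.58.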

How the data were processed

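RNA of sorted blood monocytes was measured on 12 single-colour arrays, 6 per genotype. Per the labels' protocols, 900 pg of RNA was amplified and biotinylated with a NuGEN Ovation Pico kit. A label on treatment describes a sort of T cells, and the source names and series design, which give monocytes, were followed. The deposited values are log2 expression, 1 per gene-level feature. RMA and Partek are named per the submitters' processing notes, with versions, chip definition and any batch step not given in the sources used here. RMA equalises arrays and compresses differences of dim features. Precision is limited by the number of arrays.

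Of 24479 features 23281 carry 1 symbol, looked up by Entrez number, 0 several and 1198 none. Where a symbol had several features, as 2 did, the brighter was kept, which left 23279 genes. Genes were fitted together with limma 3.58.1 in R 4.3.3 and adjusted by Benjamini-Hochberg over all of them. Alternatives were the array set or the mix number as a block, fits within a set, preparation as a covariate, quantile normalization, a filter on dim genes, other variance models, array weights, a threshold of 0.1 and each array left out. The fit was tested on simulated data with 50 genes raised at each size of 0.5, 1, 2 and 3 on the log2 scale, all in the same run. Of changes of 0.5 on the log2 scale it recovered 30% without the block and 50% with it. Of changes of 1 it recovered 80% and 88%. There were 2 and 8 false calls. The many large changes of that run ease the adjustment. Recovery may thus be lower in the real data, where 5 genes passed without the block and 9 with it. An exact two-sided permutation test over all assignments was run for Trim33. The members, lists and array sets were chosen with earlier results of these data known. Named in full were genes past the threshold or with an unadjusted p under 0.05 in either fit, genes whose genotypes did not overlap over all arrays or within both sets, genes 1 or more apart between sets, and the TIF1 genes. Of the other pathway genes, those with the 2 smallest p in each fit were named. Figures used matplotlib 3.10.9.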

Additional observations from a re-analysis of the deposited data

Results flagged for a closer look

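Within a genotype, 5 of 78 groups of 6 arrays held 1 array whose gap to its nearest neighbour exceeded 0.625 of the range, Dixon's 95% critical value; chance alone flags about 1 group in 20. Ltbp3 read 3.91 on TRIM33 replicate 3, below the other 5 TRIM33 arrays. Smad5 read 4.63 on TRIM33 replicate 5, the lowest of its genotype. Smurf1 read 6.52 on TRIM33 replicate 3, the highest. Id3 read 6.34 on WT replicate 4, the WT array of the Y set not titled as a mix. Tgfbi read 11.03 on WT replicate 2, below the other WT arrays. The cause of these values was not tested.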

How the results depend on the processing

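The count of 1 called gene among the 39, Trim33, and of 0 among the 112 other pathway genes was found under every alternative run except the fits within 1 set, where 0 of 39 passed in the Xist set and 0 in the Y set with 3 arrays against 3. Over all genes the count was 5, against 9 with the array set as a block, 3 in the Xist set, 8 in the Y set and 9 with the block and only the arrays not titled as mixes. Leaving out single arrays gave 5 to 9 without the block, the 9 without TRIM33 replicate 4. With the block it gave 15 without TRIM33 replicate 4, 12 without TRIM33 replicate 3, 10 without any one of TRIM33 replicates 1, 5, 6 and WT replicates 1, 5, and 9 without each of the others. The exact permutation test of Trim33 gave p = 0.00216, and 0.005 within the sets, each the smallest that its 924 and 400 assignments allow; its difference ran from -0.81 to -0.76 without single arrays. With the mix number as a replicate block 6 genes passed over all genes and 1 of 39. Same-numbered mixes correlated at 0.138 and 0.217 in their deviations, and differently numbered mixes at -0.027 and 0.065. With 2 pairs it cannot be told whether same-numbered mixes share more than a number, and the main fits did not pair them. The count of genes that differ by preparation ran from 0 to 2 without single arrays; Acvr1b passed in 1 of those 6 fits and Id3 in 4. Of the 13 other named genes, 8 changed sign in some alternative, none of them called there, while Smad7, Ski, Bmpr2, Klf10 and Acvr1b were lower throughout.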
